A study of Mus musculus with 7 samples.

Results

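The regions described here are the stretches of the mouse genome that were listed as enriched for 5-hydroxymethylcytosine (5hmC) in ATDC5 cells at day 5 of chondrogenic differentiation, that had no gene symbol in the authors' list and that overlapped no 5hmC region of day 10 by 1 bp or more. They were selected on these 2 lists, so their absence at day 10 and their lack of a symbol are the rule and not a finding. There were 569 such regions, 27.6% of the 2058 regions of day 5 and 68.8% of the 827 without a symbol. Among the 1231 day 5 regions with a symbol the share without a day 10 overlap was similar, at 71.5% (880 regions). They are called unassigned day 5 only regions below. ATDC5 is a mouse teratocarcinoma-derived chondroprogenitor line that differentiates towards cartilage in medium with insulin, and no label of these samples names a knockdown or another agent. The series held 7 samples of genomic DNA in 5 groups, which were day 0 input (1 sample), day 0 and day 10 DNA enriched for 5-methylcytosine (5mC, 1 sample each), and day 5 and day 10 DNA enriched for 5hmC (2 samples each). The samples of a day had been merged by the authors into 1 list, so the lists give no value per sample and the tests below compare regions or windows of sequence, not cultures. The study's text gives other days than the labels, and the days used are those of the labels.

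5hmC is made from 5mC by the TET enzymes and lies mostly at CpG dinucleotides. Outside genes it is known to collect at distal enhancers, where transcription factors bind short DNA motifs and where active demethylation turns over methyl groups. AP-1, a dimer of Jun and Fos family proteins that responds to growth factors and stress, binds one of the commonest of these enhancer motifs.

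The AP-1 string TGACTCA, read on either strand, had the largest ratio of region to upstream flank among 8 motifs tested here, so regions with several copies of it are shown first. Of the 7 regions with 2 copies in the central 200 bp, none having more, the windows of 4 are printed, taken by the number of copies in the whole region and then by position. Their windows, from the RefSeq copy of GRCm38, are given on the plus strand with the AP-1 strings in capitals, and each is named after the protein-coding gene with the nearest start. They lay at chr2:69613361-69613560 (27.4 kb from the start of Lrp2, an endocytic receptor), chr2:151773666-151773865 (29.6 kb from Psmf1, a proteasome inhibitor), chr4:40649254-40649453 (53.8 kb from Aptx, a DNA repair protein) and chr5:150611721-150611920 (14.6 kb from N4bp2l1).
Lrp2 window: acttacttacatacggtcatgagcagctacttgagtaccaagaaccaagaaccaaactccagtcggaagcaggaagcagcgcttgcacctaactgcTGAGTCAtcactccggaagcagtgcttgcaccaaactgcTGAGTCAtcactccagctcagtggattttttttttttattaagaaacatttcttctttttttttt
Psmf1 window: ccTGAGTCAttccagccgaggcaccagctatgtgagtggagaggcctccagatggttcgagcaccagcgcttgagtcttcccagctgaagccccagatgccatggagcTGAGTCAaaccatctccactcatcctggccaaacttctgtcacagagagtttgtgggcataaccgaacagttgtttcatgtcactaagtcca
Aptx window: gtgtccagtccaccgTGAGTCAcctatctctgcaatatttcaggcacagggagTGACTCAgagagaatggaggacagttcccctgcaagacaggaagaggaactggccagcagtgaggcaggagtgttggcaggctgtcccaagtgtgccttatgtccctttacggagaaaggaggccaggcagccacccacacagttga
N4bp2l1 window: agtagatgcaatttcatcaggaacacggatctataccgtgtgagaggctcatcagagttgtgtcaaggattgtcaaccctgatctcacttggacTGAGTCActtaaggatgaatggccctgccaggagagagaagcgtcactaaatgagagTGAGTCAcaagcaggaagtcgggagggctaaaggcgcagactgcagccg

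Each of these windows held 2 AP-1 strings. In the Lrp2 window both lay in the copies of an exact repeat of 20 bp, and 70.2% of that region is repeat-masked. The windows also held 4, 4, 2 and 6 CpG sites, in the order printed. Of the 569 windows, 7 held 2 strings, 111 held 1 and 451 held none.

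For the gene lists described further on, the region closest to each of the 18 listed genes was also read for AP-1, and 6 of these regions held a string in the central 200 bp while 12 held none. The 5 stretches below, chosen after their strings were seen, come from those 6 regions, lie 3.57 to 94.8 kb from the start of the gene they are named after and are 41 bases centred on the AP-1 string nearest to the region's midpoint, on GRCm38 and the plus strand. They come from chr9:116222150-116222190, chr1:186611074-186611114, chr13:38320463-38320503, chr15:50945147-50945187 and chr6:83455580-83455620.
Tgfbr2 site: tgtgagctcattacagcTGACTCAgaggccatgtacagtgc
Tgfb2 site: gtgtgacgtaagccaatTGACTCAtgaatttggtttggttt
Bmp6 site: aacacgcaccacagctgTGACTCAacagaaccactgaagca
Trps1 site: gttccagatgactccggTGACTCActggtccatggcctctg
Tet3 site: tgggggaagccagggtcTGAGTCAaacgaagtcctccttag

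In these sites the AP-1 string stood 31, 58, 42, 4 and 86 bp from the midpoint of its region, in the order printed. The Bmp6 stretch also contains the E-box string CAGCTG directly beside the AP-1 string, and in the Tgfbr2 stretch the same string runs into it with 2 shared letters. A match to a string is a description of sequence, since binding was not measured in these samples.

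The 569 regions were of moderate width and lay far from gene starts. Their width ran from 362 to 1858 bp with a median of 771 bp, and together they covered 457 kb. The 3 widest were chr15:83480270-83482127 (1858 bp, 16.6 kb from the start of Pacsin2), chr17:10389655-10391389 (1735 bp, 70.7 kb from Qk, an RNA-binding protein) and chr6:86640664-86642342 (1679 bp, 13.3 kb from Asprv1). None of these 3 overlapped an annotated gene, and the widest held no AP-1 string while the other two held 2 each. For comparison, the 258 unassigned regions of day 5 that overlapped a day 10 region (unassigned shared regions) had a median width of 878 bp, and the 880 day 5 only regions with a symbol had one of 803 bp. The 1428 unassigned regions found at day 10 only were much narrower, with a median of 142 bp, which limits any comparison made over whole regions. With an upper quartile of 179 bp, most were also shorter than the 200 bp windows read for motifs below.

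The rule for overlap separated regions that were close to each other. The members nearest to a day 10 region without touching it were chr6:145998255-145998851 (86 bp away), chr17:14213255-14214285 (101 bp) and chr3:109299123-109299753 (166 bp). Just outside the rule stood chr1:13426858-13427523, chr7:135476787-135477382 and chr11:64588388-64589300, which overlapped a day 10 region by 94, 140 and 145 bp. Only 8 members lay within 1000 bp of a day 10 region and 54 (9.49%) within 10000 bp. The median distance to the nearest day 10 region was 91.6 kb, so most members were not the edge of a day 10 region.

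The absence of a symbol did not mean that a region was outside every gene. In the GENCODE mouse release 21 annotation, 145 of the 569 regions (25.5%, 95% Wilson interval 22.1 to 29.2) overlapped a gene of some type and 424 (74.5%) overlapped none. Long intergenic RNA genes were overlapped by 70 regions and antisense genes by 12. Protein-coding genes were overlapped by 52 regions (9.14%), of which 10 regions touched a protein-coding exon. In all, 101 regions lay in introns only, while 44 touched an exon.

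The share of regions in annotated genes was higher than among the day 10 only regions and was not shown to differ from that of the shared regions. Of the unassigned day 10 only regions, 20% (286 of 1428) overlapped a gene, an odds ratio of 1.37 (95% interval 1.09 to 1.72, Fisher's exact test, adjusted p = 0.0201). With protein-coding genes alone the odds ratio was 1.23 and the adjusted p 0.281, so this call did not hold for that annotation. The day 10 only regions were much narrower, and a wider region touches a gene more easily. Counted by midpoint alone, the odds ratio was 1.33 (Fisher's exact test, adjusted p = 0.0447), close to the threshold. Of the unassigned shared regions, 27.9% (72 of 258) overlapped a gene, an odds ratio of 0.883 (0.635 to 1.23, Fisher's exact test, adjusted p = 0.495).

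Nearly all regions were distal. The midpoint lay a median of 53.7 kb (quartiles 23.4 and 136 kb) from the nearest protein-coding gene start, as seen in the plot of distances to gene starts. Only 8 regions (1.41%) lay within 5 kb of a start, 267 (46.9%) lay over 5 and up to 50 kb away, 282 (49.6%) over 50 and up to 500 kb, and 12 (2.11%) farther. The closest was 751 bp and the farthest 1031 kb from a start. Upstream positions were the commoner, with 340 regions before and 229 after the start of their nearest gene. The median distance was 47.8 kb for the unassigned shared regions, of which 19 (7.36%) lay within 5 kb of a start, and 68.8 kb for the unassigned day 10 only regions. Distances and the side of the start depend in part on the rule, since a symbol was given mostly to regions near a gene. Dropping regions with a symbol removes positions in gene bodies, which lie after a start.

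**Figure D1:**
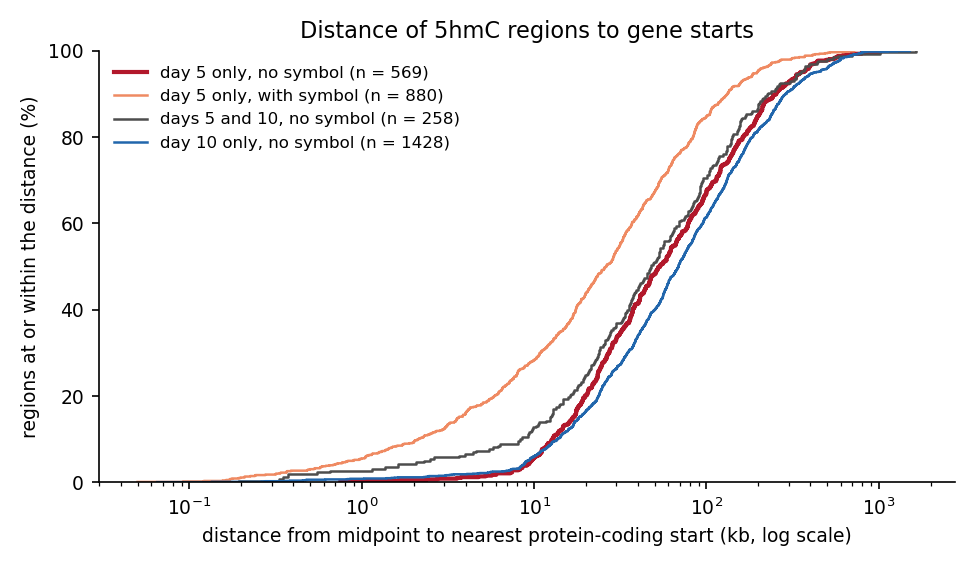
Cumulative share of 5hmC regions (y axis, percent) by distance from their midpoint to the nearest protein-coding gene start (x axis, kb, log scale) for the 569 unassigned day 5 only regions and the 3 other sets of regions. The red curve stays near 0 up to about 5 kb, where 1.41% of the regions lie, and reaches its middle at 53.7 kb.

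The regions were unevenly spread over the chromosomes. The autosomes held 565 of them, or 0.236 per Mb of assembled sequence. Chromosome 13 stood highest with 54 regions and 0.461 per Mb, followed by chromosome 15 with 0.338 and chromosome 11 with 0.328. The lowest autosomes were chromosome 12 with 15 regions (0.128 per Mb) and chromosome 18 with 12 regions (0.137 per Mb). The X chromosome held 4 regions, 0.0245 per Mb, and the Y and the mitochondrial chromosomes held none. The day 5 only regions with a symbol stood on chromosome 13 at 0.316 per Mb against 0.365 per Mb on all autosomes. The unassigned day 10 only regions were also densest there among autosomes, at 1.17 against 0.589 per Mb. The low value on the X chromosome was shared by the whole day 5 list, with 12 of 2058 regions there. That list was also lowest among autosomes on chromosomes 12 (0.299 per Mb) and 18 (0.412), against 0.854 on all autosomes. Its highest autosome was chromosome 11, at 1.48 per Mb, and chromosome 13 stood at 1.06. These densities are descriptions, with no test.

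**Figure D2:**
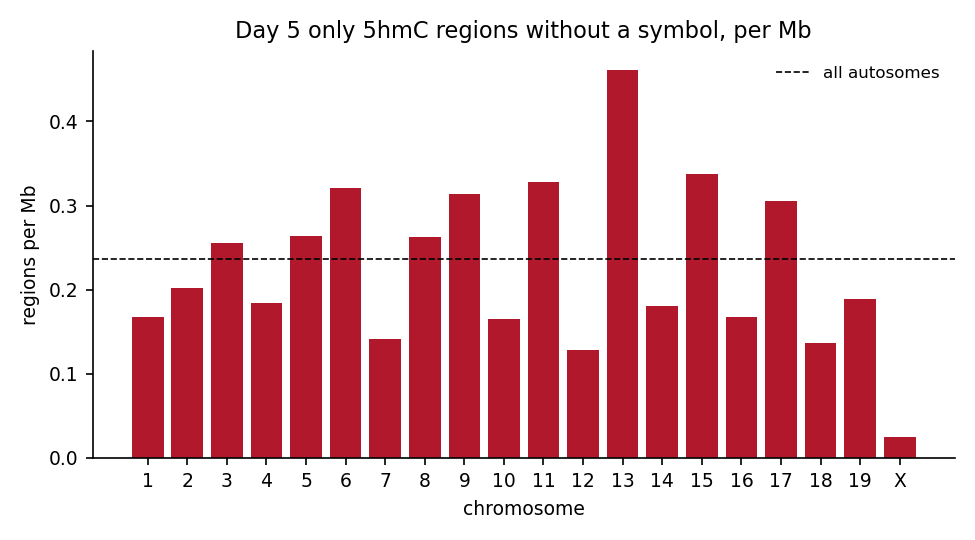
Number of unassigned day 5 only regions per Mb of assembled sequence (y axis) on each chromosome (x axis), with the value for all autosomes, 0.236 per Mb, as a dashed line. Chromosome 13 has the tallest bar at 0.461 per Mb and the X chromosome the shortest at 0.0245.

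Regions rarely lay next to each other. The median distance from a region to the nearest other one was 663 kb, the smallest was 2486 bp, 18 regions (3.16%) had a neighbour within 10000 bp and 106 (18.6%) within 100000 bp. When regions at most 100000 bp apart were joined, 463 stood alone, 42 runs had 2 regions, 6 had 3 and 1 had 4. The run of 4 lay at chr13:98550305-98652191, beside Tmem174, and the densest run of 3 spanned 26.8 kb at chr3:151904363-151931178, upstream of Ptgfr. Both runs were picked after their values were seen. The members of each shared 1 stretch of the genome and are not independent examples.

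CpG sites, the substrate of the mark, were more frequent in the regions than around them. Every region held at least 1 CpG and the median was 12, with a highest value of 50. The regions had a median of 1.54 CpG per 100 bp, while the mean of their own flanks, stretches of equal width that start 2000 bp from each edge, had a median of 0.96. The region exceeded its flanks in 474 of the 555 cases that were not tied (85.4%, exact sign test, adjusted p = 7.35e-68). The difference remained with repeat bases left out, in 441 of 534 regions. Listing regions by a mark that lies mostly at CpG favours stretches rich in CpG, so this test describes the listing. The median density was 1.66 CpG per 100 bp in day 5 only regions with a symbol, 1.54 in the shared and 1.68 in the day 10 only regions. Central windows without any CpG numbered 8 (1.41%), against 22 (2.5%), 11 (4.26%) and 61 (4.27%) in these sets. The density was still far from that of CpG islands, as 5 regions (0.879%) had a GC content over 50% together with an observed to expected CpG ratio over 0.6. GC content was 48.2% in the median region and 44.9% in its flanks, and repeat-masked bases made up 10.8% and 25.6%.

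**Figure D3:**
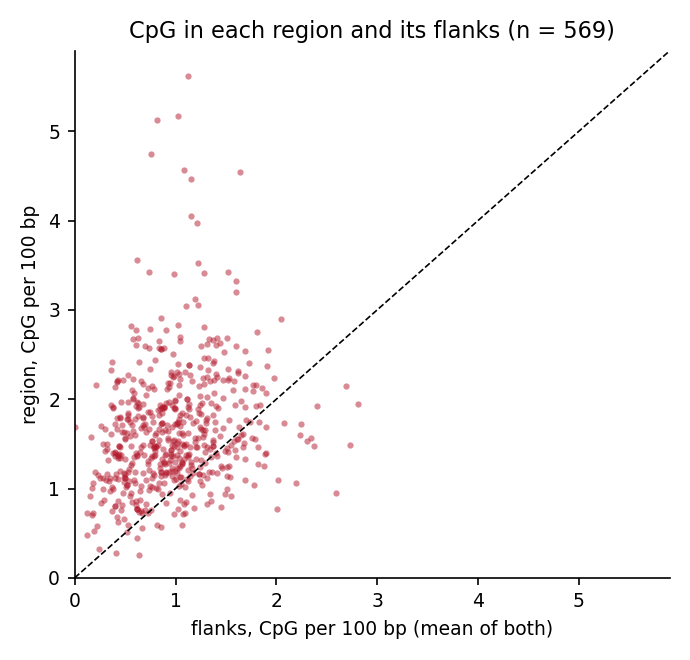
CpG sites per 100 bp in each of the 569 unassigned day 5 only regions (y axis) against the mean of both its flanks (x axis), with the line of equality dashed. Most points lie above the line, 474 of the 555 regions that differ from their flanks.

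AP-1 strings were found in the centre of 20.7% of these regions and seldom beside them. The central 200 bp held TGACTCA in 118 of 569 regions (20.7%, Wilson interval 17.6 to 24.3) and the matching 200 bp upstream window in 15 (2.64%, 1.6 to 4.3). Over all 200 bp tiles of the autosomes the share was 3.14%. In 116 regions the string was in the region alone and in 13 in the flank alone, a ratio of 8.92 (exact McNemar test, adjusted p = 6.22e-21, adjusted over 8 motifs). With the downstream flank the ratio was 5.8, where that of the rarer ETS string was 8 (16 windows against 2). When only strings outside repeats were read, 18.6% of the regions and 1.58% of the flanks held one, a ratio of 13.1.

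The strings clustered at the midpoints. The profile of AP-1 strings over the midpoint had its highest 100 bp bin at 13.2 strings per 100 regions, and the mean over the bins within 200 bp of the midpoint was 9.71, against 2.16 in the bins 1000 to 2000 bp away, 4.49 times lower. Whole regions held 306 strings, of which 221 (72.2%) lay within 200 bp of the midpoint, with a median offset of 122 bp. Counted over whole regions, 258 of 569 (45.3%) held at least 1 string, 44 held 2 and 2 held 3 or more. Among the 306 strings, 37 (12.1%) touched a repeat.

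**Figure D4:**
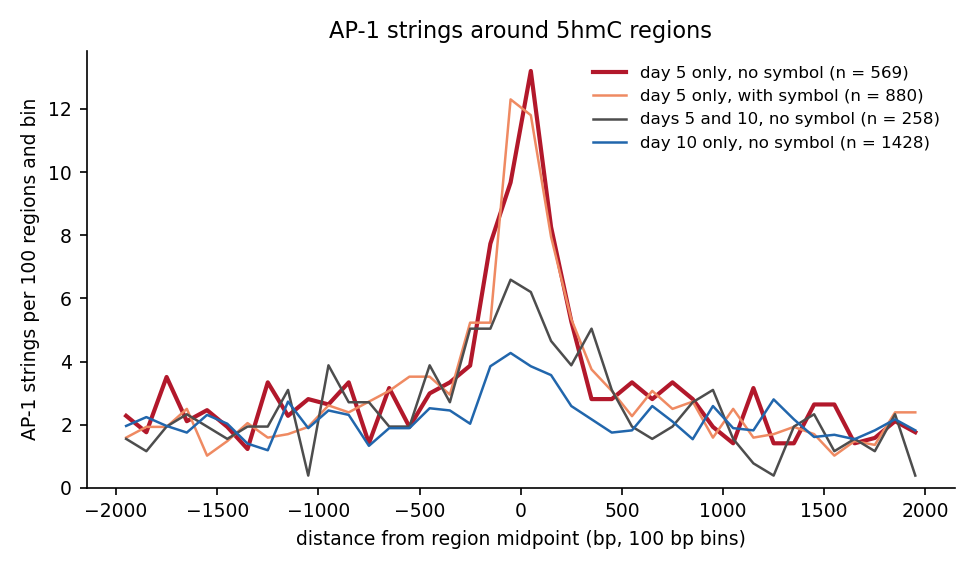
AP-1 strings per 100 regions in 100 bp bins (y axis) by distance from the region midpoint (x axis, bp) for 4 sets of 5hmC regions. The unassigned day 5 only regions peak at 13.2, and the day 10 only regions stay at or below 4.27.

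Regions listed at day 5 only differed in this string from those listed at both days and from those listed at day 10 only. The unassigned shared regions held it in 29 of 258 windows (11.2%, 7.94 to 15.7), an odds ratio of 2.07 in favour of the day 5 only regions (1.34 to 3.2, Fisher's exact test, adjusted p = 0.00973 over 24 comparisons). In the narrower window of 100 bp the odds ratio was 1.43 and the adjusted p 0.657. The unassigned day 10 only regions held it in 110 of 1428 windows (7.7%, 6.43 to 9.2), an odds ratio of 3.13 (2.37 to 4.15, Fisher's exact test, adjusted p = 7.41e-14). Most of those 1428 windows ran past their region, whereas every day 5 only region was wider than its window. In 100 bp windows this odds ratio was 2.4 (Fisher's exact test, adjusted p = 2.47e-04). Among day 5 only regions with a symbol, 196 of 880 windows held it (22.3%, 19.6 to 25.1), and a difference from the unassigned ones was not detected, with an odds ratio of 0.913 (0.706 to 1.18, Fisher's exact test, adjusted p = 0.726).

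Among the 569 regions the string was not shown to vary with position. It was in 19.8% of the 424 regions outside annotated genes and in 23.4% of the 145 inside, an odds ratio of 0.807 (0.513 to 1.27, Fisher's exact test, adjusted p = 0.432). Regions with a gene start within 50 kb held it in 21.8% and those from 50 to 500 kb in 20.2%. It was found in 10 of the 54 regions of chromosome 13 (18.5%, 10.4 to 30.8) and in 10 of the 54 regions within 10000 bp of a day 10 region. Regions with more repeat sequence than the median held it in 26.1% (21.3 to 31.5) and the others in 15.4% (11.7 to 20.1), which is given without a test. Regions with and without the string had the same median number of CpG sites, 12.

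Of the other 7 motifs, 2 passed the test against the upstream flanks, a count that ran from 1 in 100 bp windows to 5 with the flank 10000 bp away. The E-box string CAGCTG, which basic helix-loop-helix factors bind, was in 100 windows (17.6%, 14.7 to 20.9) and in 41 flank windows (7.21%), a discordant ratio of 2.79 (adjusted p = 5.02e-07, exact McNemar test), where all tiles had 7.37%. The ETS string CCGGAAG was in 16 windows (2.81%) and 3 flank windows (0.527%), a ratio of 5.33 (exact adjusted p = 0.0118), and over whole regions its adjusted p was 0.257. It contains a CG, and the windows had a mean of 4.28 CpG against 1.92 in the flanks on both sides. The listing itself favours CpG, so the ETS test cannot separate the string from its CpG. RUNX (AACCACA) was in 6.5% against 3.51% (exact adjusted p = 0.0601) and NF1 (CTGCCAAG or TTGCCAAG) in 4.22% against 1.93% (adjusted p = 0.0655). RUNX passed the threshold over 400 bp windows (exact adjusted p = 0.00397), over whole regions (9.79e-04) and outside repeats (0.00438), and NF1 passed it over whole regions (0.0191). With the flank centre 10000 bp away, RUNX (exact adjusted p = 0.00732), NF1 (0.0112), TEAD (0.0421), ETS (0.0035) and the E-box (3.08e-04) all passed. The SOX strings ACAAAGG and ACAATGG, bound by SOX9 and its relatives, were in 42 windows (7.38%) and 56 flank windows (9.84%, exact adjusted p = 0.227). TEAD (ACATTCC) was in 5.1% against 3.69% (exact adjusted p = 0.368) and CRE (TGACGTCA) in 3 windows against 1 (adjusted p = 0.625).

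None of these 7 motifs differed from the 3 other sets of regions at the threshold of 0.05 in 200 bp windows, with adjusted p from 0.249 upwards and with the least raw p at 0.0448 for ETS against the day 5 only regions with a symbol. Over whole regions NF1 was less frequent than in the wider shared regions, with an odds ratio of 0.606 (Fisher's exact test, adjusted p = 0.046). The E-box was in 15.9% of the shared and 16% of the day 10 only windows, with odds ratios of 1.13 (0.758 to 1.68) and 1.12 (0.867 to 1.45). Of the 118 windows with AP-1, 22 (18.6%) also held the E-box, against 17.3% of those without AP-1. All 3 windows with the CRE string also held AP-1. In all, 274 windows (48.2%) held none of the 8 motifs.

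**Figure D5:**
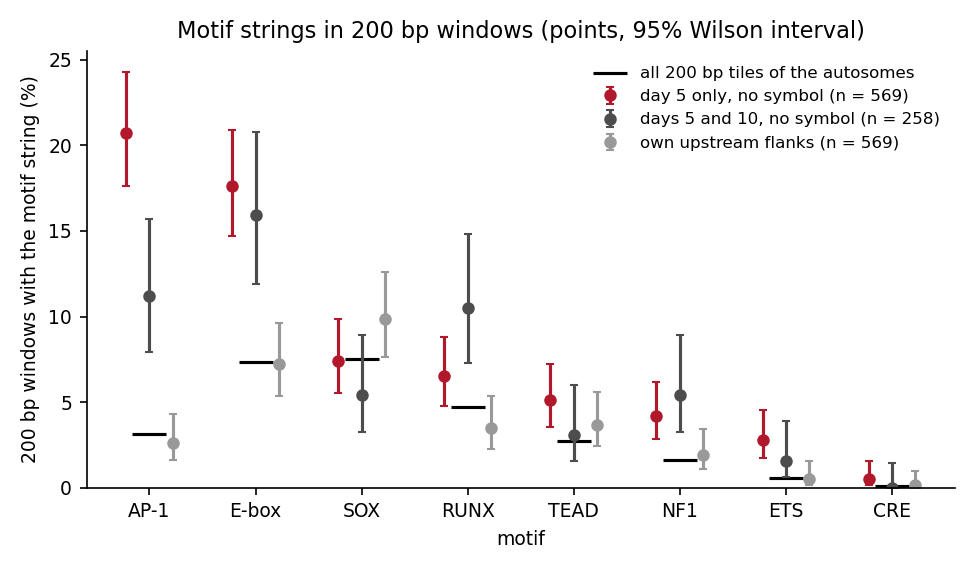
Share of 200 bp windows with each motif string (y axis, percent, points with 95% Wilson intervals) for 8 motifs (x axis) in the unassigned day 5 only regions, the unassigned shared regions and the upstream flanks, with the share of all autosomal tiles as black bars. AP-1 stands at 20.7%, 11.2% and 2.64%, and the SOX point of the regions, 7.38%, lies on the bar of all tiles.

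A scan of all strings of 7 letters, added after the values were seen and given without a test, placed AP-1 first. TGACTCA had the largest difference between the 569 windows and the 1138 flank windows on both sides (20.7% against 3.25%). By ratio, among the 1878 strings found in at least 20 windows, it was ninth, and 19 of the 20 highest contained a CG, which only 30 of the 1878 did. AP-1 was the exception among those 20. The windows had a mean of 4.28 CpG and the flanks 1.92, a ratio of 2.23. Several of the leading strings contained CACGTG, the E-box of factors such as MYC and USF, which has a CpG at its centre. It was in 74 windows (13%, 10.5 to 16) and in 13 upstream flank windows (2.28%, 1.34 to 3.87). It was in 12.5% of the day 5 only regions with a symbol, 11.2% of the shared and 8.47% of the day 10 only windows. Of the 74 windows with it, 17 also held AP-1.

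Overlap with the 5mC lists was rare in all sets of 5hmC regions. Of the 569 regions, none overlapped one of the 326 regions of the day 0 list, which allows a share of up to 0.527%, and 3 of 569 (0.527%) overlapped one of the 2401 regions of the day 10 list. These were chr19:61266341-61267315, which shared 961 bp with its 5mC region, had 50 CpG sites and lay 30.2 kb from Gm21060, and chr17:68019361-68020109 and chr8:36554627-36555356, which shared 54 and 53 bp at an edge and lay near Arhgap28 and Trmt9b. No region of the other 3 sets overlapped the day 0 list either, and 0.568% of the day 5 only regions with a symbol and 0.35% of the unassigned day 10 only regions overlapped the day 10 list. Among the unassigned shared regions 6 of 258 (2.33%) overlapped a day 10 5mC region. The odds ratio was 0.223 (0.0552 to 0.897, Fisher's exact test, p = 0.03, adjusted p = 0.05), which stands at the threshold and rests on 9 regions in all. Within 1000 bp of a 5mC region it was 0.448 and the adjusted p 0.345.

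The nearest genes were spread widely. The 569 regions had 504 different protein-coding genes nearest to them, 2.3% of the 21924 in the annotation. Of these genes, 451 had 1 region, 42 had 2, 10 had 3 and 1 had 4. The genes with a region had long surroundings. The stretch closer to a gene's start than to any other had a median of 189 kb for the 504 genes and 47.7 kb for all protein-coding genes.

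Tgfbr2, the type II receptor for TGF-beta, which drives chondrogenic differentiation, was the gene with 4 regions. All 4 lay upstream of it on chromosome 9, at 46.8, 77.7, 253 and 303 kb. From here on, AP-1 strings at named genes are counted over the whole region, where 45.3% of all 569 regions held at least 1. The nearest (chr9:116221776-116222502) held 2 AP-1 strings and 14 CpG sites and overlapped the long intergenic RNA Gm31410. The regions at 77.7 and 303 kb held 1 string each, and the one at 253 kb held none. The stretch around Tgfbr2 had 6 regions in the day 5 list, of which 1 overlapped a day 10 region, and 3 in the day 10 list. This stretch was 860 kb long and held 4.65 unassigned day 5 only regions per Mb. Among the 11 genes nearest to 3 or more, this density ran from 3.72 (Pkdcc) to 29.6 (Tmem174).

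Tgfb2, which encodes a ligand of this receptor, had 3 regions on chromosome 1, all beyond the end of the gene at 94.8, 155 and 240 kb from its start. The nearest (chr1:186610810-186611494) held 1 AP-1 string, the middle one (chr1:186550279-186551151) none and the farthest (chr1:186465583-186466087) 2. The stretch had 4 regions in the day 5 list, none of them shared with day 10, and 5 others in the day 10 list.

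Other genes had 3 regions each. Gse1 had 2 in its gene body and 1 that lay 22.4 kb upstream of it. Cog6, a Golgi tethering subunit, had 3 beyond its end at 119 to 310 kb, of which the one at 119 kb held 3 AP-1 strings. Pkdcc, a secreted kinase needed for growth of long bones, had regions at 62.2, 66.5 and 94.3 kb, with 31, 16 and 19 CpG sites and no AP-1 string. Magi3, a scaffold protein, had 3 upstream between 12.9 and 121 kb. Ptgfr, a prostaglandin receptor, had 3 upstream between 67.1 and 93.3 kb. Prok2, a secreted ligand, had 3 upstream between 108 and 217 kb, and 2 of them overlapped the long intergenic RNA Gm44442. Med13l, a subunit of Mediator, had 1 upstream and 2 downstream. Around Magi3 and Ptgfr the day 10 list had no region, whereas around Med13l it had 10 and around Cog6 8.

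In all, 9 lists of genes that fit the cell line and hold 227 genes were read for the nearest gene of a region, and 18 of these genes were found. The lists were chosen with earlier results of these data known, so the counts are descriptions, with 2.3% of all protein-coding genes as the background. The 18 genes had long surroundings, with a median stretch of 538 kb.

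Of 26 transcription factors of chondrogenesis, 5 (19.2%) were nearest to a region, and all 5 regions lay over 50 kb away. These were Trps1 (54.7 kb upstream), which acts in growth plate chondrocytes, Foxa2 (118 kb downstream), which acts in hypertrophy, Sox5 (121 kb upstream), a partner of SOX9, Runx1 (154 kb upstream) and Osr1 (211 kb upstream). Over the whole region, those of Trps1, Sox5 and Runx1 held 1 AP-1 string each, and only that of Trps1 held it in the central 200 bp. Of all 569 regions, 45.3% held at least 1 string over the whole region. The density was 0.445 regions per Mb of the list's stretches, against 0.209 for all genes. A further region (chr17:44519689-44520956) lay in an intron of Runx2, the driver of hypertrophy and bone formation, although the nearest start was that of Supt3. It was named after its value was seen.

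Of 30 genes of TGF-beta and BMP signalling, 3 (10%) were nearest to a region, with 8 regions between them and 1.11 regions per Mb. Besides Tgfbr2 and Tgfb2 this was Bmp6, a ligand of the hypertrophic zone, with a region of 25 CpG sites 24.6 kb upstream (chr13:38319966-38321084).

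Of 26 genes of FGF and insulin signalling, 4 (15.4%) were nearest to a region, at 0.388 regions per Mb. Igf1r, the receptor through which insulin-like growth factors act, had one at 18.2 kb upstream with 19 CpG sites. Irs2, an adaptor of this receptor, had one at 47.7 kb with 22. Pik3r1 and Igfbp3 had theirs at 235 and 317 kb. None of these 4 regions held an AP-1 string.

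Of 20 genes of DNA methylation and demethylation, 3 (15%) were nearest to a region, at 1.49 regions per Mb from 4 regions. Tet3, one of the enzymes that make 5hmC, had a region inside its own gene 3.57 kb after the start (chr6:83455004-83456025), which overlapped an exon and held 35 CpG sites and the AP-1 string printed above. The authors' list gave it no symbol. Gadd45b, a stress protein linked to demethylation, had a region with 36 CpG sites 9.8 kb after its start, and its relative Gadd45g had 2 at 171 and 180 kb. No region at Tet3 or Gadd45b was in the day 10 list.

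Of 32 WNT genes, 2 (6.25%) were nearest to a region, Wnt11 at 41.2 kb and Fzd8 at 396 kb, with 0.268 regions per Mb. Of 16 Hippo pathway genes, 1 (6.25%) was, Ccn1, a matricellular target of YAP, at 53.7 kb, with 0.386 regions per Mb. None of the 28 cartilage matrix genes, the 20 AP-1 and related factors or the 29 integrin and focal adhesion genes was nearest to a region. This holds for the listed genes only. The matrix genes Fn1, Col6a3 and Col1a1, which were not listed, were each nearest to at least 1 region. They were named after their values were seen. The median stretch of those 3 lists, 63.9, 59.4 and 108 kb, was shorter than the 328 kb of the chondrogenic factors.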

How the data were processed

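Genomic DNA of ATDC5 cells was enriched for 5mC with a methyl-CpG binding complex or for 5hmC after a tagged sugar was added to it, and sequenced. Per the study's methods and the submitters' processing notes, reads were trimmed with cutadapt, aligned to GRCm38 with BWA and used to call peaks with MACS 1.4.2. The authors deposited 4 peak lists with chromosome, start, end and, for part of the rows, a gene symbol. These deposited positions are the only measurement, in bp, and no list holds a score, count or fold per region. Per the file headers, the 5hmC lists hold regions of at least 10-fold and the 5mC lists regions of at least 3-fold enrichment. By the methods, the calling was meant to find where chondrocytes had gained or lost 5mC or 5hmC relative to progenitors, so the lists may hold differences from progenitors and not all sites of a mark. Which library served as control for each list is not given in the sources used here. Depth is unknown, so a region that is missing from a list may lie below the threshold, and intervals cover counting of regions only. A deeper library or another control would change which regions enter the rule. The input sample was not analysed here.

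Empty rows (27818 and 25449 in the 5hmC lists) were dropped, and 1105 of 1113 day 5 rows (99.3%) whose symbol was matched lay within 10000 bp of that gene. Sequence, with repeats soft-masked, came from RefSeq GRCm38.p6 and genes from GENCODE release 21. Motif strings were read on both strands, in 200 bp around each midpoint and in an equal window at the centre of a stretch of the region's width that ends 2000 bp upstream of it. Windows were compared by exact McNemar tests (8 motifs), sets of regions by Fisher's exact tests (24 comparisons) and 5 further results by Fisher's exact or sign tests, all two-sided, with Benjamini-Hochberg adjustment in each family and a threshold of 0.05. Odds ratios carry Woolf's and shares Wilson's 95% intervals. The McNemar test and the odds ratio were tried on shuffled windows with planted AP-1 strings, while the sign test and the adjustment were not. Python 3.11.15 and scipy 1.17.1 were used.

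The regions and gene lists were chosen with earlier results of these data known. Regions were named as the 3 widest, the 3 on each side of the overlap rule, 4 with most central AP-1 strings (ties by strings in the whole region, then position) and those on a 5mC region. Genes were named as the 8 with most regions (ties in alphabetical order) and up to 4 of each list by distance. Osr1, the fifth of its list, was added to complete a count.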

Additional observations from a re-analysis of the deposited data

How the results depend on the processing

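No paired analysis was possible because each day was deposited as 1 merged list, and for the same reason no replicate could be left out. Of the 58 values recomputed for the main comparisons under other settings, 50 kept their direction and their side of the threshold, or stayed within 1.5 times for counts. Of 84 further values for single motifs besides AP-1, 71 kept their side of the threshold. In 10 the test passed only under the other setting, 1 lost its call and 2 turned in direction. The odds ratio of AP-1 against the day 5 only regions with a symbol turned to 1.03 in a 400 bp window, and that of regions outside against inside genes to 1.06 in a 400 bp window and 1.03 over whole regions. None of these values passed the test. AP-1 against the shared regions lost its call in a 100 bp window (1.43). The gene share against day 10 only regions lost it with protein-coding genes alone (1.23), and the 5mC overlap against the shared regions, which stood at the threshold, was further from it within 1000 bp (0.448). List genes linked to a region fell from 18 to 2 when the region had to overlap the gene body and to 7 when the start had to lie within 50 kb. Over whole regions, NF1 and RUNX turned in direction against the day 10 only regions (2.57 and 4.12), which are much narrower. Of the 7 motifs besides AP-1, 2 passed against the upstream flank, 1 in 100 bp windows and 5 with the flank 10000 bp away. The counts from 100 bp windows and from the farther flank were not among the 58 values. The cause of the other changes was not tested. Unknown depth and the missing scores limit all comparisons of days.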
